A study of Mus musculus with 4 samples.

Results

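The genes described here recognise dying cells and start their uptake, a process called efferocytosis. They were chosen by name as rows of the 2 deposited tables: the TAM receptor tyrosine kinases Axl, Mertk and Tyro3, their ligands Gas6 and Pros1, the receptor Timd4, the bridging protein Mfge8, and the engulfment adaptors Elmo1, Dock1 and Gulp1. These are 10 of the 18526 genes listed in either table, of which 9 stood in both tables and 8 passed the low-count filter and were tested. The libraries came from microglia, the macrophages that live in brain tissue, isolated by fluorescence-activated sorting from C57BL/6 mouse embryos at embryonic day 14 (telencephalon in the design text, cortex in the protocol). The knockout group carried a conditional deletion of Arid1a, which encodes a DNA-binding subunit of BAF chromatin remodellers, and is labelled Arid1acKO; the control group carried the floxed allele and is labelled Arid1afl/fl. Values were analysed for 1 knockout library (replicate 2) and 2 control libraries (replicates 5 and 6); knockout replicate 1 was not analysed here. The Cre driver, and whether a sample came from 1 embryo or a pool, are not given in the sources used here. Every p-value therefore rests on the spread between these libraries, which may be technical and comes from the 2 controls. With 1 residual degree of freedom, the tests used draw each gene's spread towards that of all genes. The p-value of a gene thus does not rest on its own controls alone.

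A dying cell exposes phosphatidylserine on its outer membrane, and phagocytes read this lipid directly or through soluble bridges. Gas6 and protein S (Pros1) bind it with a vitamin K-dependent domain and link it to the TAM receptors, Tim-4 (Timd4) binds it directly, and Mfge8 links it to integrins. The signal then reaches the actin cytoskeleton, among other routes through the ELMO1 and DOCK1 pair, which activates Rac, while GULP1 is an adaptor of engulfment receptors. In the brain, Axl and Mertk are known for the clearance of dying neural cells by microglia.

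Axl, Pros1 and Dock1 had the lowest values in the knockout library relative to both controls, each at about the same distance, whereas their partners Mertk, Gas6 and Elmo1, scaled to the library total, differed from the nearer control by less than the controls differed from each other. Axl had 16.5% of the mean control level, Pros1 17.5% and Dock1 15.4%. No gene of the 10 passed the test over all genes (edgeR quasi-likelihood, adjusted p under 0.05), where 0.0394% of the 15236 genes tested did (0.0263% lower, 0.0131% higher). With genes required to reach 5 CPM in 2 libraries, the same test called 2 of the 10, Axl and Pros1, both lower, against 0.457% of all such genes and 0.280% lower. The DESeq2 Wald test called 3, Axl, Pros1 and Dock1, all lower, against 1.93% of all genes and 1.35% lower. At an unadjusted p under 0.05, 3 of the 8 tested genes were lower and 0 were higher, against 3.54% and 2.46% of all genes. At least 2-fold below both controls were the same 3 genes, against 6.92% of all genes, and 0 were at least 2-fold above both, against 9.23%. The knockout was the lowest library in 5 of the 8 and the highest in 2, against 31.1% and 38.0% of all genes. Axl, Pros1 and Dock1 also lay at least 4-fold below both controls, as 2.51% of all genes did. The 10 genes were chosen with earlier results of these data known. The shares of all genes are therefore a background to their counts and not an independent test.

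The start regions of these 3 genes and of the partners Mertk and Gas6 are printed so that they can be set side by side, each from 250 bases before to 50 bases after the RefSeq start site on GRCm38.p6, 5′ to 3′ on the gene's strand. RefSeq held a start region for all 10 genes. Capitals mark matches on either strand to the GC box GGGCGG, which is bound by SP and KLF factors, and to GAGGAAG, a core of sites for PU.1 and other ETS factors.
Axl (chr7:25788684-25788983, minus strand): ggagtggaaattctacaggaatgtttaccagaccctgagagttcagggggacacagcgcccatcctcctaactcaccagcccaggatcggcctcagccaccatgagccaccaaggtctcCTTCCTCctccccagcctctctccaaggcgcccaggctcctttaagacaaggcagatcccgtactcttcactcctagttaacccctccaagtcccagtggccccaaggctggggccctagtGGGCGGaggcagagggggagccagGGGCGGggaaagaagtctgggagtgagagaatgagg
Pros1 (chr16:62854057-62854356, plus strand): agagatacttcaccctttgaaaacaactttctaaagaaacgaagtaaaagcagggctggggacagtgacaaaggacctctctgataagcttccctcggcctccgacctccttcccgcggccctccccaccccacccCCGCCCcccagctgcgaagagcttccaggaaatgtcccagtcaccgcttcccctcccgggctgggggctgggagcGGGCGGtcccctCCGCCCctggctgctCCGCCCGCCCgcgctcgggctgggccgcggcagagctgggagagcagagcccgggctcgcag
Dock1 (chr7:134670437-134670736, plus strand): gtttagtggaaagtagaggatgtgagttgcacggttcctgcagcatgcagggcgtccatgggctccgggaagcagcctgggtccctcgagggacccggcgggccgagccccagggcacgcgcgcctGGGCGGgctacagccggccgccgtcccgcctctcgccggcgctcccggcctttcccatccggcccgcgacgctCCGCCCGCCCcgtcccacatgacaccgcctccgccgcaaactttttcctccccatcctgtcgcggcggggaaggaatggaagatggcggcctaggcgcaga
Mertk (chr2:128698665-128698964, plus strand): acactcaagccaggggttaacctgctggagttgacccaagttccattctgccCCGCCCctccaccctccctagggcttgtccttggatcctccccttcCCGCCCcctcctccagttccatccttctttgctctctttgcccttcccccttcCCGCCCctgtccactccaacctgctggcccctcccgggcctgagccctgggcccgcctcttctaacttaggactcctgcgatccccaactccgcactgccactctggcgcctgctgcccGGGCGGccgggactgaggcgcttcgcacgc
Gas6 (chr8:13494486-13494785, minus strand): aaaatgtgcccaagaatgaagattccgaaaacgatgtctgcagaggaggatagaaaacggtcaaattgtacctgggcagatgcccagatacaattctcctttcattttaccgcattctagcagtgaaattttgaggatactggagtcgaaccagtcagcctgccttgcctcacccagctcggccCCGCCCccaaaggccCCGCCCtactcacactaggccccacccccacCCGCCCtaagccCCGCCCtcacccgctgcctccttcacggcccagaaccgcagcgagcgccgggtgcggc
All 5 held the GC box, with 2 matches in Axl, 5 in Pros1, 3 in Dock1, 4 in Mertk and 4 in Gas6, as did 35.7% of the 32851 start regions of this length. Axl alone of the 5 held GAGGAAG, found in 13.6% of all start regions and also, with 2 matches, at the upstream start of Elmo1. None of the 5 held the AP-1 letters TGANTCA, the E-box CACGTG, the ISRE-like motif of interferon-response elements or the TATA-box letters TATAAA, which stood in 7.81%, 7.15%, 3.44% and 13.6% of all start regions. TATAAA stood once at the upstream start of Elmo1, on the strand opposite to the gene and at position -233 from the start site. Neighbouring GC boxes overlapped each other in Pros1 and Dock1. The dinucleotide CG occurred 6 times in Axl, 21 in Pros1, 34 in Dock1, 14 in Mertk and 17 in Gas6, where the median start region held 7. No letters among those searched were shared by the 3 genes with low knockout values and missing from both partners. A match is a description of the letters, not evidence of binding.

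Among the receptors, Axl (ENSMUSG00000002602, chromosome 7, 25757273 to 25788705, minus strand) is the TAM kinase that is most closely tied to activated phagocytes. It had 345 reads in the knockout against 1909 (control 5) and 1644 (control 6). As CPM, reads scaled to the library total after TMM adjustment, this was 18.9 CPM (exact Poisson interval 16.95 to 20.99, counting error only) against 107 and 122 CPM. The knockout value lay far below 2 controls that were close to each other. The control mean was 114 ± 10.7 CPM (SD, n = 2), 6.05-fold above the knockout, and the log2 fold change of -2.60 (SE 0.46) was 13.5 times the log2 gap between the controls. It did not pass over all genes (adjusted p = 0.145). The gap is a single difference between 2 libraries and can be near 0 by accident. Its multiples, here and for the genes below, therefore do not measure error.

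Mertk (ENSMUSG00000014361, chromosome 2, 128698956 to 128802894, plus strand), the TAM receptor best known for routine clearance by resting macrophages, had 1601 reads in the knockout against 1632 (control 5) and 1683 (control 6). The levels were 87.6, 91.2 and 125 CPM, so the knockout stood just under control 5, and the controls differed from each other by more than it did from the nearer one. The log2 fold change was -0.30 (SE 0.41, adjusted p = 1.00). Over control 5 alone its sign depends on the scaling, being -0.06 here and 0.08 as the log2 fold change in the authors' deposited table.

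Tyro3 (ENSMUSG00000027298, chromosome 2, 119797733 to 119818104, plus strand), the TAM receptor typical of neurons, had 7 reads in the knockout library and 0 in each control. With the controls set at 3 reads per library, the knockout was 1.97-fold higher. The exact Poisson interval of the 7 reads, 0.154 to 0.7895 CPM, reaches below those control levels, so no minimum fold follows. Tyro3 was below the filter and was not tested. The 3 libraries thus held very little Tyro3 beside the other receptors. The 10 neuronal markers summed to 306 CPM in the knockout against 358 (control 5) and 391 (control 6).

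**Figure D1:**
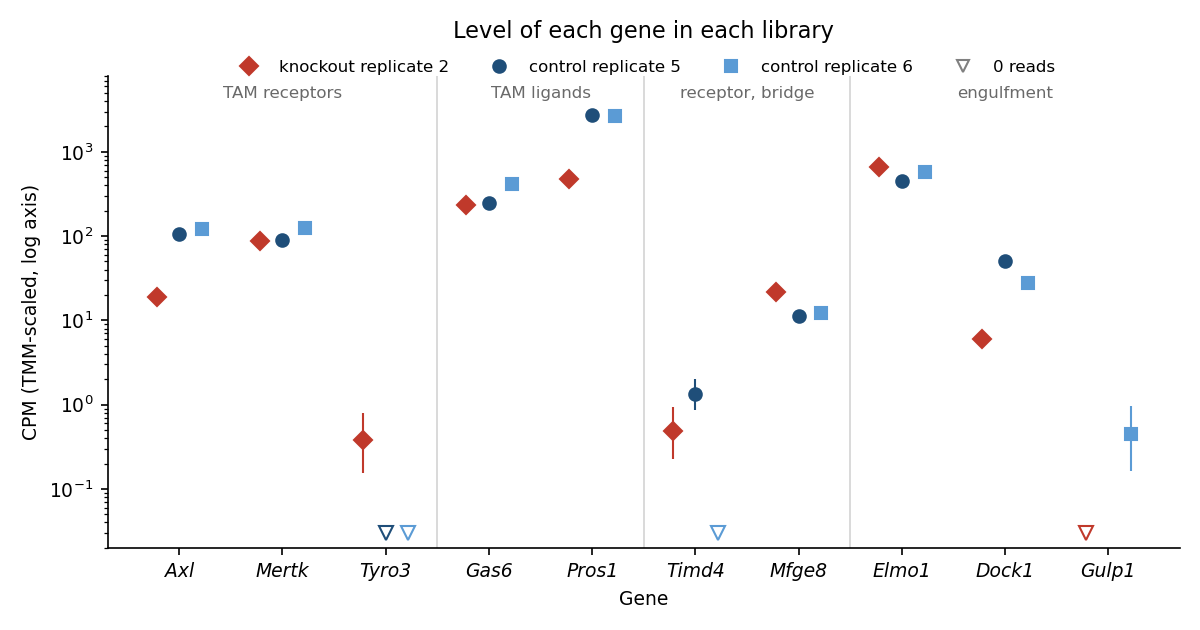
Level of each of the 10 genes (horizontal axis) in CPM on a log axis, with 1 point per library and exact Poisson intervals where they exceed the marker; open triangles at the foot of the plot stand for 0 reads. The knockout diamonds of Axl (18.9 CPM), Pros1 (471 CPM) and Dock1 (6.02 CPM) lie far below both controls; Gulp1 has no point for control 5, whose table does not list it.

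The make-up of the receptor reads does not depend on any scaling between libraries. Axl made up 17.7% of the Axl, Mertk and Tyro3 reads in the knockout library (345 of 1953, exact Clopper-Pearson interval 16.0% to 19.4%). In the controls it made up 53.9% (1909 of 3541, 52.3% to 55.6%) and 49.4% (1644 of 3327, 47.7% to 51.1%). The intervals cover counting error only. Divided by exon length, the share was 15.6% against 50.2% and 45.7%, so the controls held about equal amounts of Axl and Mertk transcript per length and the knockout library mostly Mertk.

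Among the ligands, Pros1 (ENSMUSG00000022912, chromosome 16, 62854307 to 62929346, plus strand), which encodes protein S, also an anticoagulant cofactor in blood, was the most abundant of the 10 genes per exon length in all 3 libraries. It had 8610 reads in the knockout against 49034 (control 5) and 35555 (control 6). The levels were 471 CPM (461 to 481) against 2739 and 2635 CPM, a control mean of 2687 ± 73.7 CPM (SD, n = 2). The knockout lay 5.70-fold under that mean, and the 2 controls differed little. The log2 fold change of -2.51 (SE 0.35) was 44.9 times the gap between the controls and did not pass over all genes (adjusted p = 0.0773). That gap, 0.056, was far smaller than the SE. Ranked by CPM per kilobase of exon among 15207 genes with a length, Pros1 was number 51 in the control mean and number 368 in the knockout library.

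Gas6 (ENSMUSG00000031451, chromosome 8, 13465374 to 13494490, minus strand), the ligand that activates all TAM receptors, had 4248 reads in the knockout against 4408 (control 5) and 5585 (control 6). The levels were 233, 246 and 414 CPM. As for Mertk, the knockout lay close to control 5 and the controls stood further apart, with a log2 fold change of -0.50 (SE 0.42, adjusted p = 1.00). Over control 5 alone the log2 ratio was -0.08 here and 0.05 in the authors' deposited table. An opposite-strand gene, Tmem255b, covers 1.33% of its exon bases, which counts made without strand cannot separate.

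Pros1 made up 67.0% of the 2 ligands' reads in the knockout library (8610 of 12858, exact Clopper-Pearson interval 66.1% to 67.8%). It made up 91.8% in control 5 (49034 of 53442, 91.5% to 92.0%) and 86.4% in control 6 (35555 of 41140, 86.1% to 86.8%). Per exon length the shares were 55.8%, 87.4% and 79.9%, so Pros1 remained the larger ligand transcript in the knockout library, by a smaller margin. The number of Pros1 reads for each Axl read was 24.96 in the knockout against 25.7 (control 5) and 21.6 (control 6), so this receptor and this ligand stood in nearly 1 proportion in all 3 libraries. With 1 knockout library, this only restates that both genes had like folds there, and a link between them was not tested.

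**Figure D2:**
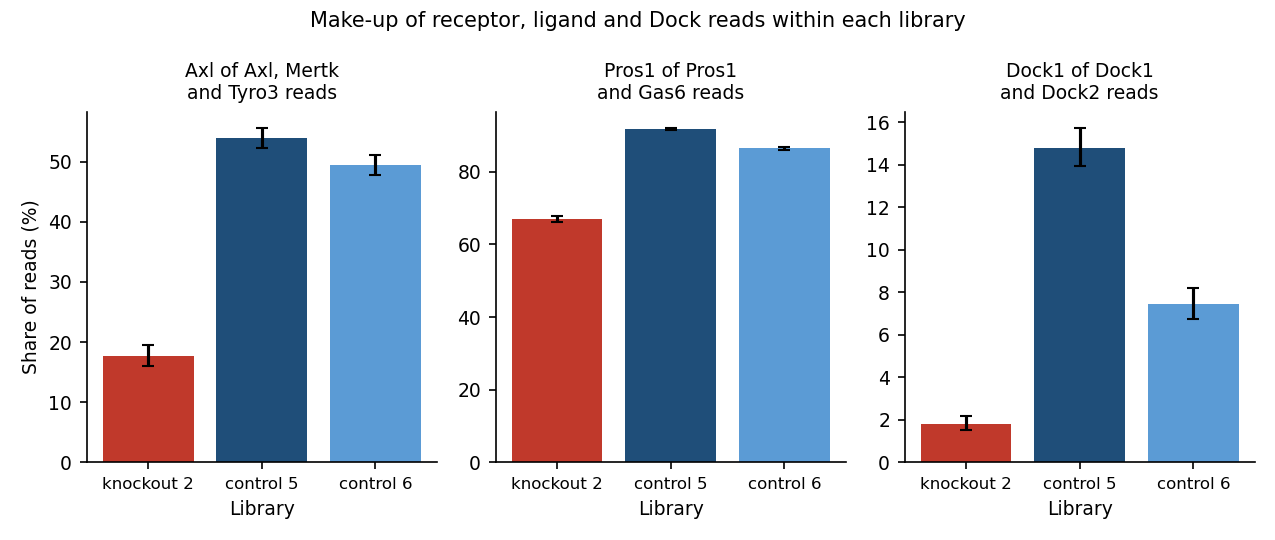
Share of reads (vertical axes, percent, each from 0) that Axl takes of the TAM receptors, Pros1 of the TAM ligands and Dock1 of the Dock1 and Dock2 pair, with 1 bar per library and exact Clopper-Pearson intervals. In each panel the knockout bar (17.7%, 67.0% and 1.83%) is below both control bars.

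Of the other phosphatidylserine readers, Timd4 (ENSMUSG00000055546, chromosome 11, 46810800 to 46844332, plus strand), a receptor of long-lived tissue macrophages, was near the limit of detection. It had 9 reads in the knockout against 24 (control 5) and 0 (control 6), or 0.493, 1.34 and 0 CPM. The controls lay on either side of the knockout, so no direction can be read (log2 fold change -0.45, SE 3.38, adjusted p = 1.00). It passed the filter only through control 5, and the 0 of control 6 allows up to 0.222 CPM.

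Mfge8 (ENSMUSG00000030605, chromosome 7, 79133768 to 79149060, minus strand), the milk fat globule protein that bridges phosphatidylserine to integrins, had 398 reads in the knockout against 202 (control 5) and 163 (control 6). The levels were 21.8 CPM (19.7 to 24.0) against 11.3 and 12.1 CPM. The knockout was the highest library and the controls were close, at a mean of 11.7 ± 0.562 CPM (SD, n = 2), 1.87-fold below it. The log2 fold change of 0.90 (SE 0.61) was 9.24 times the gap between the controls and did not pass (adjusted p = 0.959). Neural progenitors, which also make Mfge8, were read through 10 markers, of which 8 were listed and tested and the knockout was highest in 5. Their summed level was 220 CPM in the knockout library against 155 and 157 CPM, mostly Nes, where the knockout was between the controls, and Vim (102 against 36.5 and 18.4 CPM). Their part in the Mfge8 value was not tested.

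Among the engulfment adaptors, Elmo1 (ENSMUSG00000041112, chromosome 13, 20090596 to 20608353, plus strand), the partner through which DOCK proteins are recruited, had 11982 reads in the knockout against 7965 (control 5) and 7767 (control 6). The levels were 656, 445 and 576 CPM. The knockout was the highest library, on this scale by less than the controls differed, with a log2 fold change of 0.36 (SE 0.35, adjusted p = 1.00). Of its transcript stretches of 50 bases, 2.93% also occur in another gene, chiefly the opposite-strand Gm32036, which covers 3.20% of its exon bases. Gulp1 shared 0.231% of such stretches, and the other 8 genes shared none.

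Dock1 (ENSMUSG00000058325, chromosome 7, 134670654 to 135173639, plus strand), the Rac activator that works with ELMO1, had 110 reads in the knockout against 898 (control 5) and 380 (control 6). The levels were 6.02 CPM (4.95 to 7.26) against 50.2 and 28.2 CPM. The knockout lay below both, but here the controls also differed from each other. Their mean was 39.2 ± 15.6 CPM (SD, n = 2), 6.503-fold above the knockout, and the log2 fold change of -2.70 (SE 0.66) was 3.25 times their gap and did not pass (adjusted p = 0.360). Dock2, the blood-lineage relative of Dock1, had 324 CPM in the knockout, and the controls 320 ± 44.0 CPM (SD, n = 2). Dock1 made up 1.83% of the reads of the pair in the knockout library (110 of 6027, exact Clopper-Pearson interval 1.502% to 2.196%) against 14.8% (898 of 6072, 13.9% to 15.7%) and 7.42% (380 of 5119, 6.72% to 8.18%).

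Gulp1 (ENSMUSG00000056870, chromosome 1, 44551511 to 44796838, plus strand), a phosphotyrosine-binding adaptor, was listed only beside control 6. It had 0 reads in the knockout library, set at 3 reads or 0.164 CPM, and 6 in control 6 (0.445 CPM). On that setting the knockout was 2.71-fold lower. The exact Poisson interval of the 6 reads, 0.163 to 0.968 CPM, reaches below the knockout setting, so no minimum fold follows. Gulp1 was not tested.

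Per kilobase of exon, the order in the control mean was Pros1 (657 CPM per kb), Gas6 (129.5), Elmo1 (40.6), Mertk (24.9), Axl (22.7), Dock1 (4.197), Mfge8 (2.49) and Timd4 (0.309). Mertk and Axl exchanged places between the controls (21.02 and 21.19 in control 5, 28.8 and 24.2 in control 6), so these neighbours do not differ beyond their spread. The other neighbours down to Mfge8 kept their order in both controls. In the knockout library the order was Pros1 (115 CPM per kb), Gas6 (91.3), Elmo1 (52.1), Mertk (20.2), Mfge8 (4.64), Axl (3.75), Dock1 (0.645) and Timd4 (0.227), with Mfge8 above Axl and Dock1. Pros1 reads outnumbered Gas6 reads 2.03 to 1 in the knockout, 11.1 to 1 in control 5 and 6.37 to 1 in control 6.

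**Figure D3:**
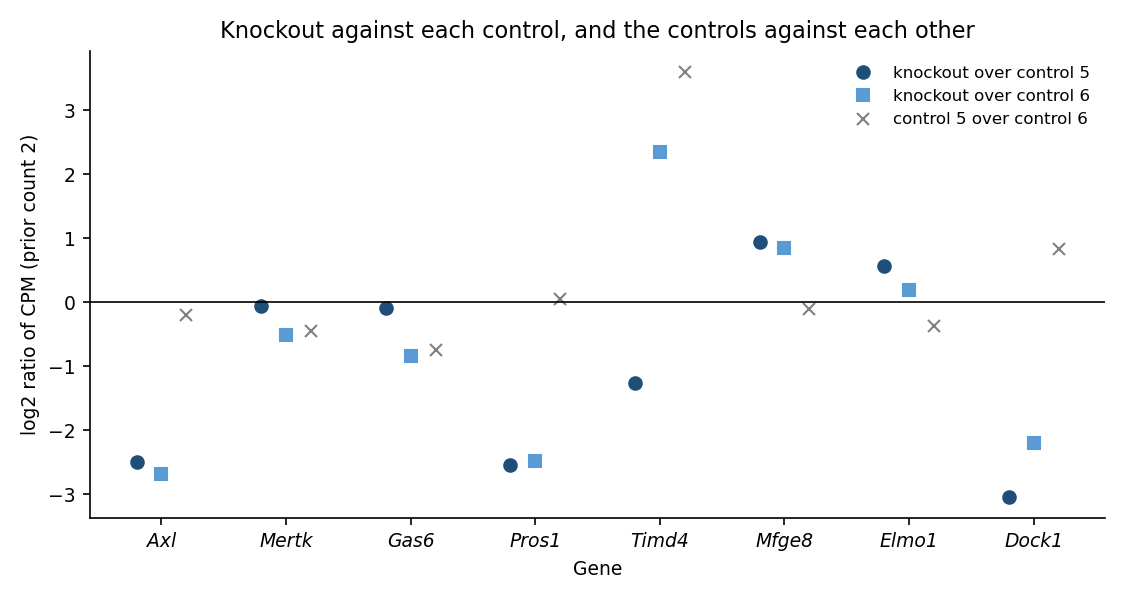
Log2 ratios of CPM (vertical axis, prior count of 2) for the 8 tested genes: knockout over control 5, knockout over control 6, and control 5 over control 6. For Axl, Pros1, Dock1 and Mfge8 both knockout ratios lie on 1 side and exceed the control ratio; the knockout ratios share 1 library.

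The whole series bears on these values in a few ways. The libraries held between 13774075 and 18608979 counted reads. Arid1a itself had 1258 reads in the knockout against 1952 (control 5) and 1760 (control 6) (68.9 CPM against 120 ± 15.1 CPM, SD, n = 2; log2 fold change -0.80, SE 0.41, adjusted p = 0.901), in the direction of the label without passing. The reads were counted over the whole gene, and loss of the floxed part was not tested. Microglia markers were abundant in all 3 libraries, and the knockout was lowest in 8 of the 10, where it was lowest in 31.1% of all genes. They summed to 14440 CPM in the knockout library against 19810 and 27610 CPM, and none was at 0. Siglech, a microglial lectin, passed the test over all genes, at 58.3 CPM against 918 and 1057 CPM (adjusted p = 0.0324). In bulk RNA, fewer cells of a type and less RNA per cell cannot be told apart.

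The low values of Axl, Pros1 and Dock1 were also seen beside those markers within each library, a measure that takes the markers in place of the library total as the reference. Per 1000 reads of the 10 microglia markers, Axl had 1.31 reads in the knockout, 5.38 in control 5 and 4.41 in control 6. Pros1 had 32.6 against 138 and 95.4, and Dock1 had 0.417 against 2.53 and 1.02. The control mean was 3.74-fold above the knockout for Axl, 3.58-fold for Pros1 and 4.26-fold for Dock1, so these differences were larger than that of the markers together. They were not larger than that of every marker, since the sum is carried by the most abundant ones. Siglech had a log2 fold change of -4.08. The DESeq2 Wald test called 3 of the 10 markers, all lower, beside 1.93% of all genes. Mertk, by the same measure, had 6.07 reads against 4.60 and 4.52, and Gas6 16.1 against 12.4 and 15.0, both highest in the knockout library. For these 2 genes the direction therefore turns with the reference chosen. Elmo1 had 45.4 reads per 1000 marker reads against 22.5 and 20.8, 2.10-fold the control mean and beyond the gap between the controls, unlike on the CPM scale. Mfge8 had 1.51 against 0.570 and 0.437, 2.997-fold the control mean.

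Markers of other cells were low by comparison. Those of border-associated macrophages, which line the vessels and meninges, summed to 650 CPM in the knockout library against 714 and 1069 CPM. The single markers did not follow the sum, with the knockout lowest in 2 and highest in 4 of 10. At least 2-fold above both controls were 2, beside 9.23% of all genes, and 0 were 2-fold below both, beside 6.92%. Lyve1 had 6.68 CPM in the knockout against 0 and 0.963, and Cd163 had 1.04 against 0 and 4.08. Endothelial markers, 6 of 10 tested, summed to 248 CPM against 182 and 202 CPM, mostly Slc2a1, which other cells also express (221 against 138 and 165 CPM). Of the 6, the knockout was highest in 3 and lowest in 2. Esam, not tested, had 0.547 CPM in the knockout and 0 in both controls. Endothelial cells also make protein S. Their defining markers did not move 1 way. Kdr had 14.3 CPM in the knockout against 7.32 and 6.52, and Cldn5 6.90 against 1.79 and 0, both higher. Pecam1 had 3.89 against 20.5 and 27.3, and Cdh5 0.657 against 1.96 and 2.44, both lower. The part of endothelial cells in the Pros1 value was not tested. The sums for monocytes and neutrophils, erythroid and mural cells were 13.9 to 221 CPM in the knockout and 12.5 to 230 CPM in the controls. Of the 8 monocyte and neutrophil markers tested, the knockout was highest in 3 and lowest in 2, beside 38.0% and 31.1% of all genes. Plac8 had 68.9 CPM in the knockout against 14.7 and 31.7, and Ccr2 had 93.0 against 120 and 138. Mast cell and granulocyte precursor markers summed to 40.6 CPM against 45.9 and 42.5, with members on opposite sides of the controls. Prg2, an eosinophil granule protein gene, had 0.219 CPM against 44.4 and 15.0 (edgeR adjusted p = 0.118, DESeq2 Wald adjusted p = 1.59e-07), whereas Cpa3 had 23.1 against 0 and 13.7, Mpo 12.1 against 0 and 5.85, and Kit 4.49 against 0 and 2.52. Their part in the values of the 10 genes was not tested.

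The authors' own calls compare the knockout library with 1 control at a time. In the authors' deposited tables Axl, Pros1 and Dock1 were marked as significant against both controls, with Axl at 5.13-fold and 5.97-fold lower, Pros1 at 5.28-fold and 5.18-fold lower and Dock1 at 7.57-fold and 4.33-fold lower. Tyro3 was marked only over control 5 and Timd4 only over control 6, in each case as higher and on fewer than 10 knockout reads. Mertk, Gas6, Mfge8, Elmo1 and Gulp1 were not marked. Both tables share the knockout library, so their folds are not independent.

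The wider pathway was read through 8 lists of 154 genes, of which 142 were in a table and 135 were tested. By edgeR none passed over all genes, beside 0.0394% of all genes tested. At an unadjusted p under 0.05, 6 were lower and 3 higher, beside 3.54% and 2.46% of all genes. The knockout was lowest in 42 and highest in 57, where 31.1% and 38.0% of all genes were. The median log2 fold change was 0.13, beside 0.05 for all genes tested. At least 2-fold below both controls were 6 of the 135 and above both 7, beside 6.92% and 9.23% of all genes. The shares of 3.54% lower and 2.46% higher also stand beside the counts given per list below. The DESeq2 Wald test called 2 of the 127 that had an adjusted p, Cd47 and Slc29a3, both lower, beside 1.93% of all genes.

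Other receptors for phosphatidylserine and dying cells had a median log2 fold change of 0.08 over 20 tested genes, with 1 lower and 0 higher at that unadjusted p. Pear1, a relative of the engulfment receptor Megf10, had 3.56 CPM, and the controls 15.5 ± 1.21 CPM (SD, n = 2, edgeR adjusted p = 0.733), and Trem2, the microglial lipid receptor, at 82.6 against 126 and 192 CPM (adjusted p = 0.863). Cd300lb had 47.8 against 20.3 and 26.5 CPM (adjusted p = 0.875). The most abundant per length was Havcr2, which encodes the phosphatidylserine-binding Tim-3, at 652 against 344 and 459 CPM (adjusted p = 0.896). Among other bridging and opsonizing proteins (median 0.30, 13 tested, 0 lower and 1 higher), Lgals3, a galectin also described as a Mertk ligand, had 113 against 56.5 ± 7.35 CPM (adjusted p = 0.799). Thbs1 had 132 against 83.2 and 59.4 CPM (adjusted p = 0.855), and C1qb, a complement opsonin and the most abundant, had 2643 against 4142 ± 221 CPM (adjusted p = 0.863).

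Find-me signals and their receptors had a median of 0.09 over 11 tested genes, with 1 lower and 0 higher. P2ry12, the most abundant, had 4073 CPM against 7843 ± 892 CPM (SD, n = 2, edgeR adjusted p = 0.576), Cx3cr1, the fractalkine receptor, had 950 against 1232 and 3479 CPM (adjusted p = 0.850), and S1pr1 had 226 against 342 and 410 CPM (adjusted p = 0.890). In engulfment signalling to the cytoskeleton the median was 0.24 over 26 tested genes, with 0 lower and 0 higher. Wasf2, an actin regulator downstream of Rac, had 289 against 106 and 192 CPM (adjusted p = 0.852), Dock8 284 against 142 and 206 CPM (adjusted p = 0.931) and the lipid exporter Abca1 201 against 305 and 406 CPM (adjusted p = 0.865). Vav1, the most abundant per length, had 462 against 532 ± 10.6 CPM (adjusted p = 1.00).

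Do-not-eat-me genes had a median of 0.25 over 9 tested genes, with 2 lower and 0 higher. Cd47, the signal that restrains uptake through Sirpa, had 164 CPM against 545 and 371 CPM (edgeR adjusted p = 0.477, DESeq2 Wald adjusted p = 0.0146), and Pecam1, which is also an endothelial marker, had 3.89 against 23.9 ± 4.79 CPM (SD, n = 2, edgeR adjusted p = 0.457). Pirb had 52.1 against 21.8 and 29.8 CPM (adjusted p = 0.878), and B2m, the most abundant, had 1449 against 1214 ± 36.6 CPM (adjusted p = 1.00). Phagosome maturation and corpse digestion had a median of -0.16 over 28 tested genes, with 1 lower and 0 higher. The knockout was lowest in 13 of these, or 46.4%, beside 31.1% of all genes. Slc29a3, a lysosomal nucleoside transporter, had 79.3 against 191 and 299 CPM (edgeR adjusted p = 0.459, DESeq2 Wald adjusted p = 0.0138), Slc37a2 had 48.8 against 66.0 and 113 CPM (adjusted p = 0.931) and the lipid kinase gene Pik3c3 14.8 against 35.8 and 25.1 CPM (adjusted p = 0.931). Lamp1, the most abundant, was between both controls, with 506 CPM beside 803 and 494; opposite-strand genes cover 9.31% of its exon bases.

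Transcription factors known to drive efferocytosis genes had a median of 0.19 over 12 tested genes, with 0 lower and 1 higher. Klf2 had 42.9 CPM against 17.6 ± 2.46 CPM (SD, n = 2, edgeR adjusted p = 0.801), Klf4 27.5 against 97.5 and 40.2 CPM (adjusted p = 0.865) and Rxra, the partner of the LXR and PPAR receptors, 57.3 against 14.8 and 35.0 CPM (adjusted p = 0.889). Nr1h2, an LXR gene and the most abundant, was between both controls, with 226 CPM beside 130 and 233. Genes of TAM signalling, receptor shedding and ligand carboxylation had a median of 0.20 over 16 tested genes, with 1 lower and 1 higher. Rhbdf2, which brings the sheddase ADAM17 to the cell surface, had 52.9 against 11.95 and 22.1 CPM (adjusted p = 0.654), Fyn 8.87 against 59.7 and 20.5 CPM (adjusted p = 0.698) and Pik3r1 62.3 against 105 ± 13.2 CPM (adjusted p = 0.931). Adam10, another sheddase and the most abundant, had 620 against 487 ± 24.97 CPM (adjusted p = 1.00).

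**Figure D4:**
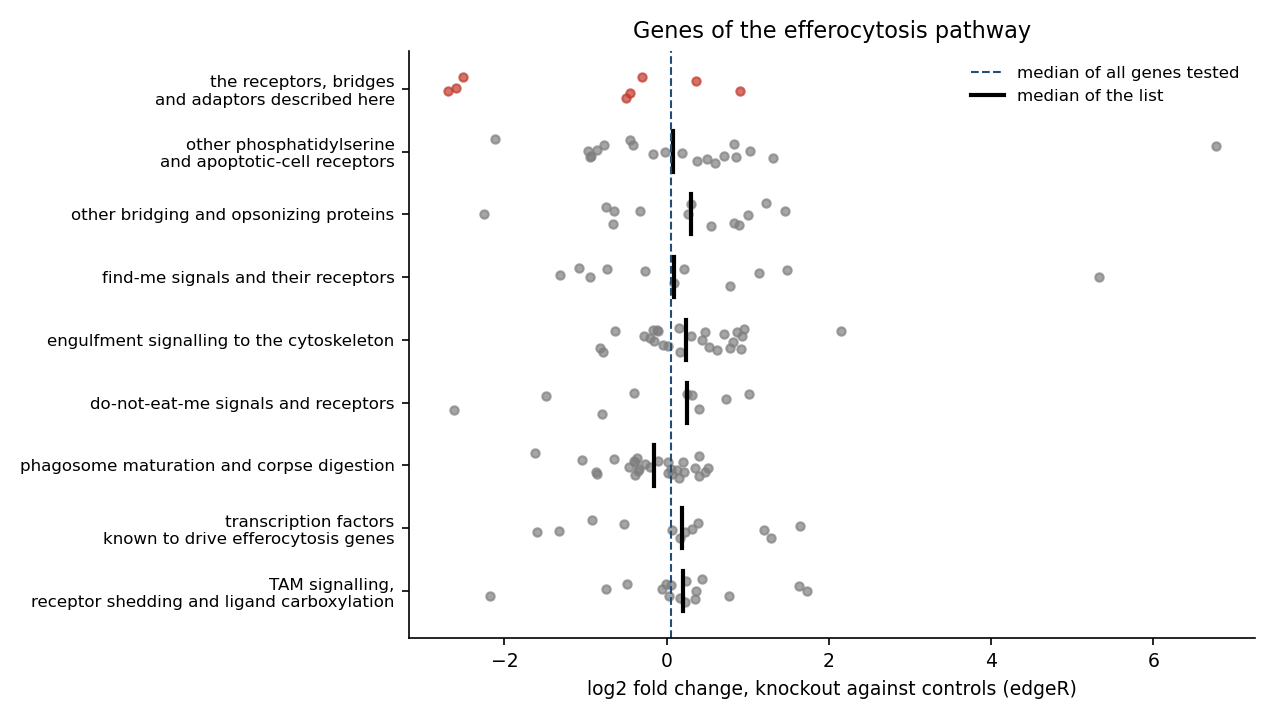
Log2 fold change, knockout against controls (horizontal axis), of the 8 tested genes described here (top row) and of the tested genes of each pathway list, 1 point per gene, with list medians as black bars and the median of all genes as a dashed line. List medians lie between -0.16 and 0.30, and the single genes Axl, Pros1 and Dock1 lie at -2.51 or lower. Single genes of the lists also lie low, with Pecam1 at -2.62, Fyn at -2.18 and Pear1 at -2.12. Edil3, plotted at -2.25, had 5 reads in the knockout, 0 in control 5 and 36 in control 6. Its knockout value was between the controls, so no direction can be read. The 2 points at the far right are Scarf1 and P2ry2, which had 0 and at most 2 reads in the controls.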

How the data were processed

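Microglia RNA from embryonic day 14 was measured in 1 knockout and 2 control libraries. The authors deposited 2 tables, each with raw read counts per gene for the knockout library and 1 control. Bowtie2 2.2.3, TopHat2 2.0.12, HTSeq 0.6.0 and mm9 are named in the submitters' processing notes. The deposited gene positions are those of GRCm38, not mm9: 89.9% of IDs found in GENCODE M21 had an identical position, including all 10 genes described. The tables also hold the authors' CPM values, each a count over the library total with a count of 0 entered as 0.5 reads, and the authors' comparison of each gene: a fold ratio, the log2 of it, and p-values raw and adjusted, whose test is not given in the sources used here. Per the labels, the library kit was a TruSeq RNA kit; whether reads were counted by strand is not given in the sources used here.

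Counts of the 16655 genes in both tables went into edgeR 4.0.16 (R 4.3.3): filterByExpr (15236 genes kept), TMM, the quasi-likelihood F test and Benjamini-Hochberg adjustment at 0.05, two-sided, with 1 residual degree of freedom between libraries. The fit drew each gene's variance towards a trend over all genes, as DESeq2 also does. The fit was run on simulated data at a low spread and at one near that of these data. Limits on recovered and false calls were set only at the low spread, and at the other only signs were checked. The simulation therefore does not show how well calls are recovered here. Each SE is the log2 fold change over the root of its F. Exon lengths are merged GENCODE exons. Intervals are at the 95% level, floors are 3 reads per library (0.164, 0.168 and 0.222 CPM), and both cover counting error only. Genes named from each pathway list were the 3 with the smallest unadjusted p whose mean reached 5 CPM, and the most abundant per length; Dock2, Scarf1 and P2ry2 were named after their values were seen. The genes and lists were chosen with earlier results of these data known. Alternatives were DESeq2 1.42.0 size factors and Wald test, upper-quartile factors, other filters, genes in either table and leaving out each control. The values of 1 marker gene are not reported here.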

Additional observations from a re-analysis of the deposited data

How the results depend on the processing

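No paired analysis was possible because knockout and control libraries share no replicate number. edgeR called 6 genes in all, and 0 with upper-quartile factors, with size factors from DESeq2 or without any low-count filter (818, 895 and 948 at an unadjusted p under 0.05), 10 with genes in either table and 44 where genes had to reach 5 CPM in 2 libraries, where 0.457% of 9628 genes passed. The DESeq2 Wald test called 222, or 1.93% of the 11488 genes with an adjusted p. Of the 10 genes described, 0 were called, 2 with the 5 CPM filter and 3 by the Wald test. With that filter Axl had a log2 fold change of -2.59 (adjusted p = 0.0491) and Pros1 -2.50 (0.0247), and by the Wald test Axl had -2.60 (1.07e-05), Pros1 -2.52 (2.74e-11) and Dock1 -2.71 (0.0119). Over the 6 tested alternatives the adjusted p reached 0.350 for Axl, 0.312 for Pros1 and 0.643 for Dock1, and no log2 fold change of the 8 tested genes turned its sign in those that gave a value. The calls thus changed with the filter and the tool. The log2 folds in the authors' deposited tables were -2.36 for Axl, 0.081 for Mertk, 0.055 for Gas6, -2.40 for Pros1, 1.09 for Mfge8 and 0.70 for Elmo1 over control 5, and -2.37 for Pros1 and 3.84 for Timd4 over control 6, with the opposite sign for Mertk, Gas6 and Timd4.

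Leaving out 1 control leaves 1 library against 1 and a value with no test. These values ran from -2.68 to -2.49 for Axl, -0.51 to -0.05 for Mertk, -0.83 to -0.08 for Gas6, -2.53 to -2.48 for Pros1, 0.84 to 0.95 for Mfge8, 0.19 to 0.56 for Elmo1, -3.03 to -2.20 for Dock1 and -0.92 to -0.66 for Arid1a. For Timd4 they ran from -1.26 without control 6 to 2.30 without control 5, so its direction turns without control 5, which had 24 reads where control 6 had 0. List medians ran from 0.034 to 0.050 for other receptors, 0.38 to 0.68 for other bridges, -0.17 to 0.40 for find-me genes, 0.21 to 0.31 for engulfment signalling, -0.012 to 0.29 for do-not-eat-me genes, -0.10 to -0.047 for phagosome maturation, -0.10 to 0.43 for transcription factors and 0.21 to 0.26 for TAM signalling. With no low-count filter the medians were 0.27 for other receptors and 0.53 for other bridges, by the DESeq2 Wald test 0.28 and 0.54, and with the 5 CPM filter other receptors had -0.0086. The cause of these shifts was not tested.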

Other observations

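Vkorc1, which recycles the vitamin K needed to mature Gas6 and protein S, had 0 reads in the knockout library and 9 in control 5, and is not listed beside control 6. Ggcx, the carboxylase of the same step, had 6.79 CPM in the knockout library against 4.804 CPM in control 5 and 9.34 CPM in control 6, between the controls. Nr1h3, an LXR gene, had 154 reads in the knockout, 50 in control 5 and 35 in control 6 (8.43 CPM against 2.69 ± 0.141 CPM, SD, n = 2), which did not pass (edgeR adjusted p = 0.959). These 3 genes were chosen after their values were seen.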
